A study of Mus musculus with 9 samples.

Results

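The genes described here are 40 mouse genes that respond to type I interferon and act against viruses, chosen by name from the 52183 genes of an RNA sequencing table. All 40 had a row in the table, and 36 of them had a mean of at least 1 FPKM (fragments scaled to gene length and library depth) over the 9 libraries. The 36 were tested, and the other 4, Mx1, Oas1g, Oas2 and Oas3, were not. The cells were endothelial cells of the bone marrow, sorted by flow cytometry from long bones after VE-cadherin on the vessel lining had been labelled in vivo with an injected antibody. Young controls were 3 months old, aged controls 18 months old, and the remaining group, also 18 months old, is labelled as carrying a knockout of Thbs1, the gene for thrombospondin-1. Each group had 3 libraries. The labels give neither the strain, the allele nor the genotype of the controls beyond the word control, and whether each library is a separate mouse is not stated. The p-values therefore measure the spread between libraries, which may be technical in part.

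Type I interferons are secreted proteins that bind a receptor made of Ifnar1 and Ifnar2. The receptor activates the kinases Jak1 and Tyk2, which phosphorylate STAT factors such as Stat2, and these join Irf9 and bind the interferon-stimulated response element in the promoters of target genes. The targets include sensors of viral nucleic acid, regulators that feed back on the signal, and effectors that block viral entry, translation or replication. Endothelial cells line vessels and express many of these genes at a low level without infection.

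Thbs1 went against the label of the knockout group. It was measured at 4.55, 3.89 and 4.18 FPKM in the young controls, 0.67, 0.82 and 1.17 FPKM in the aged controls, and 25.63, 19.45 and 19.84 FPKM with the knockout label. The level was thus highest where the gene is named as knocked out, and it was lowest in the aged controls. Every comparison with either 18-month group therefore rests on the labels. Below, a difference with age means the libraries labelled aged control against the young controls, and an effect of age itself was not tested. Depth recovered from the table was 22240000 to 24590000 fragments in the controls and 27250000 to 30420000 in the libraries labelled knockout. All 12 defining endothelial genes were detected, with Cdh5, which encodes VE-cadherin, at 153.15 to 176.54 FPKM. The pan-leukocyte gene Ptprc was at 0.03 to 0.13 FPKM. Other blood cell lists were not as low over the 9 libraries. Summed levels were 644.88 to 3856.9 FPKM for 10 B and plasma cell genes and 419.62 to 718.98 FPKM for 10 monocyte and macrophage genes. They were 5.74 to 272.45 FPKM for 8 neutrophil genes and 55.16 to 189.72 FPKM for 8 erythroid and megakaryocyte genes.

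The promoters of the called genes are shown because the interferon-stimulated response element is how these genes are usually addressed. Of the 40 genes, 30 matched an entry of RefSeq's promoter table on GRCm38.p6, which spans 250 bases before to 50 after the gene start. The letters GAAANNGAA, part of that element, were searched on both strands of those 300 bases. They were found in 18 of the 30 genes (60%), against 2638 of 27025 genes in the whole table (9.76%). The letters TTCNNNGAA, a form of the STAT site, occurred in 7 of the 30 (23.3%) and in 2582 of the 27025 (9.55%). Of the 8 genes called in a comparison below, 6 had an entry, and all 6 held a GAAANNGAA match; among genes tested and not called it was 10 of 22. A match describes letters and is not a measured binding site. The stretches below, from the 6 called genes, are in lower case with the GAAANNGAA matches (on either strand) in capitals. Isg15 lay outside the rule of 5 promoters and was added after its values were seen.
Samd9l, chr6:3399522-3399551, minus strand: gtatcagaatcgaaactgGAAACTGAAgca
Eif2ak2, chr17:78882533-78882562, minus strand: tccgccggGAAAACGAAACAGAAgagaacc
Ifi44, chr3:151749895-151749924, minus strand: aaaagtttctcTTCATTTTCtacaggcttg
Ifih1, chr2:62646256-62646405, minus strand: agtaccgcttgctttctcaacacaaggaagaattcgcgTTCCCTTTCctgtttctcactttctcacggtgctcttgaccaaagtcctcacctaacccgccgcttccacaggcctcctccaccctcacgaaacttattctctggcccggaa
Isg15, chr4:156200819-156200968, minus strand: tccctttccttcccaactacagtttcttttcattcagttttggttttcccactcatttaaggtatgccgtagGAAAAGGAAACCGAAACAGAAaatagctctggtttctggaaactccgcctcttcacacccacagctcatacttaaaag
Bst2, chr8:71537473-71537622, minus strand: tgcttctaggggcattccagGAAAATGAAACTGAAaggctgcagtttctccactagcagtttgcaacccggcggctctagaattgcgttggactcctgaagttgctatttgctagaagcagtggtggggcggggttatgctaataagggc

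Isg15 held 3 overlapping matches in 1 run, 78 to 66 bases before the gene start, and Bst2 held 2 overlapping ones, 130 and 124 bases before it. In Samd9l and Eif2ak2 the matches lay after the start, and in Ifi44 the match crossed it, so only 30 bases around them are printed. Ifih1 had a second match after its start that is not printed. Mx2 and Parp14, the other called genes, had no entry. They lie on chromosome 16, at chr16:97535308-97560900 on the plus strand and chr16:35832874-35871544 on the minus strand of GRCm38.

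With age, most of the interferon-stimulated genes leaned lower, but those called did not all share a direction. Of the 36, 5 fell, 1 rose, and 30 did not pass the test. Samd9l, an antiviral restriction factor, fell most, and Eif2ak2 (PKR, the kinase that halts translation on double-stranded RNA), Ifi44, the RNA sensor gene Ifih1 (MDA5) and the ADP-ribosyltransferase gene Parp14 also fell. Bst2, the tether that holds budding virions at the cell surface, rose. Of all 11796 genes tested, 2.8% were called lower and 1.2% higher in this comparison by limma at an adjusted p under 0.05. Those are 330 and 141 genes, and with median-ratio scaling they were 200 and 215, while the called interferon-stimulated genes numbered 4 lower and 1 higher. The median difference of the 36 genes was -0.234 on the log2(FPKM + 1) scale, beside -0.045 over all genes, and 27 of the 36 were negative. The aged libraries lay below all young libraries for 14 of the 36 (21.8% of all genes) and above them for 4 (13.9% of all genes). By role, the medians were all negative, from -0.281 in the 17 tested effectors to -0.226 in the 4 further interferon-induced genes. At an unadjusted p under 0.05, 12 were lower and 2 higher (17.4% and 10.2% of all genes), and limma voom on recovered fragments called 7 lower and 1 higher (3.73% and 1.3% of all genes). The calls rest on the label of the aged controls: the labelled knockouts, of the same age, had no call against young. Samd9l, Ifih1 and Eif2ak2 were still lower in every labelled knockout than in every young library (-0.64, -0.38 and -0.47). Bst2 was higher in the same way (0.48). In that comparison 14% of all genes were lower and 8.46% higher without overlap. Ifi44 and Parp14 overlapped there (0.08 and -0.01). The 6 calls became 0 without young control 1, 1 without young control 2, young control 3, aged control 3 or labelled knockout 3, and 2 without aged control 2. Over all genes, the 141 higher and 330 lower became 0 and 5, 3 and 17, and 4 and 19 without young controls 1, 2 and 3. Those counts were 68 and 185 without aged control 2, and 36 and 96 without aged control 3.

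Between the aged controls and the libraries labelled knockout, 5 of the 36 genes were higher in the latter and none was lower. They were Mx2, an interferon-induced GTPase gene, Ifi44, Parp14, Samd9l and Isg15, the ubiquitin-like protein that is conjugated to other proteins after interferon. Over all genes, 2.78% were called higher and 2.01% lower. At an unadjusted p under 0.05, limma gave 8 higher and 1 lower (12.7% and 11.3% of all genes), and voom called 5 higher and none lower (3.36% and 2.22% of all genes). The median difference was 0.143, beside 0.002 over all genes, and 24 of the 36 were positive. By role, the medians were all positive, from 0.055 in the 4 sensors to 0.244 in the 3 genes of the ISG15 system. The groups did not overlap for 9 genes, all higher in the libraries labelled knockout (12.1% of all genes were higher without overlap and 11.1% lower). This comparison shares its aged controls with the one above, so they are not independent. The 5 calls became 1 without aged control 2, aged control 3 or labelled knockout 3, 2 without young control 2, young control 3 or labelled knockout 1, and 3 without aged control 1. Without labelled knockout 2 there were 4 higher and 1 lower, beside 593 higher and 559 lower over all genes.

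None of the 36 genes was called between the libraries labelled knockout and the young controls by limma, where 0.0848% of all genes were called higher and 0.127% lower, or by voom, where 0.0848% were called in each direction. At an unadjusted p under 0.05, 3 were higher (Bst2, Isg15 and Ifitm2) and 4 lower (Samd9l, Ifih1, Eif2ak2 and Ifit2), beside 3% and 6.27% of all genes. The median difference was -0.093, beside -0.033 over all genes. The groups did not overlap for 2 genes that were higher (8.46% of all genes) and 7 that were lower (14% of all genes). This median turned to 0.032 without young control 1 and to 0.036 without labelled knockout 1.

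**Figure D1:**
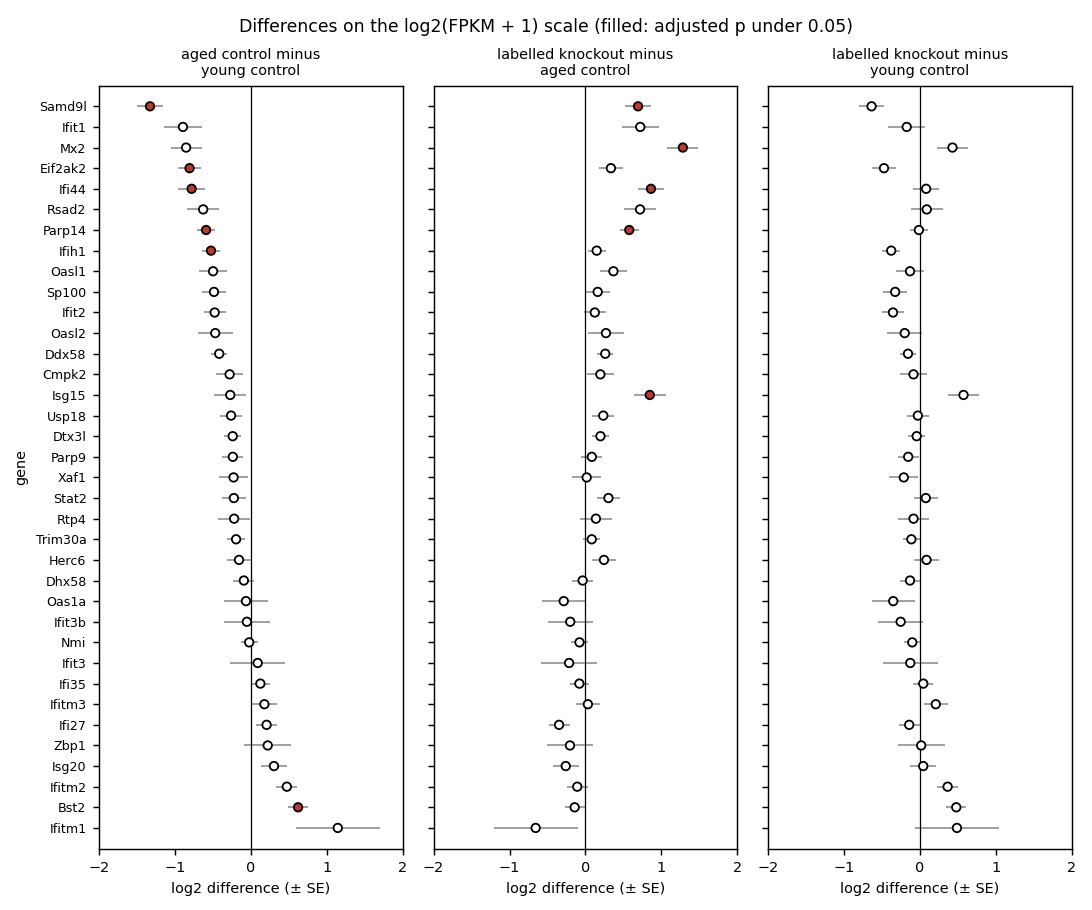
Log2 difference with its standard error (x axis, log2(FPKM + 1) scale) for the 36 tested genes (y axis, ordered by the aged minus young difference) in the 3 comparisons; filled points had an adjusted p under 0.05. Filled points number 6 for aged against young, 5 for labelled knockout against aged and 0 for labelled knockout against young.

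The 4 sensors recognise foreign nucleic acid in the cytosol. Ifih1, the sensor of long double-stranded RNA, was at 4.66, 4.63 and 3.77 FPKM in the young controls, 2.68, 2.97 and 2.48 FPKM in the aged controls, and 3.41, 3.17 and 2.76 FPKM in the group labelled knockout. Every aged library lay below every young one, and the libraries labelled knockout overlapped the aged ones. Ifih1 fell by 0.53 with age on the log2 scale (SE 0.119, adjusted p = 0.0435 by limma) and differed by 0.15 between labelled knockout and aged (adjusted p = 0.480). The age call of Ifih1 held in 2 of 9 fits that each left out a library. Ddx58 (RIG-I, the sensor of RNA with a triphosphate end) averaged 20.5 ± 1.90, 15.1 ± 1.76 and 18.2 ± 0.0808 FPKM (SD, n = 3) in young, aged and labelled knockout, and its aged difference of -0.42 did not pass (adjusted p = 0.0580). Dhx58 (LGP2, a regulator of both) lay between 4.21 and 6.60 FPKM in all 9 libraries. Zbp1, the sensor of left-handed nucleic acid, lay between 1.10 and 3.78 FPKM and was the 1 sensor with a positive aged difference (0.22, adjusted p = 0.678).

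Among the 8 signalling and regulatory genes, Parp14 was called in both comparisons with the aged controls. It was at 14.66, 11.60 and 11.51 FPKM in the young controls, 8.27, 7.97 and 7.68 FPKM in the aged controls, and 13.77, 10.65 and 12.93 FPKM in the labelled knockouts. The aged libraries were lowest, with no overlap with either other group, and the young and labelled knockout groups overlapped each other. Parp14 fell by 0.59 with age (SE 0.123, adjusted p = 0.0381 by limma) and was 0.58 higher in labelled knockout than in aged (SE 0.123, adjusted p = 0.0297). With a library left out, these calls held in 3 and 2 of 9 fits. Sp100, a nuclear body protein gene, was at 38.1 ± 1.52, 27.4 ± 7.05 and 30.2 ± 2.82 FPKM (SD, n = 3) and was lower in every aged library than in every young one, with an adjusted p of 0.0962. Stat2, a transcription factor of the interferon signal, had aged and labelled knockout differences of -0.23 and 0.30 that did not pass (adjusted p = 0.370 and 0.269). Parp9 and its partner Dtx3l, a ubiquitin ligase, overlap on opposite strands by 682 bases, so part of their reads may be shared where strand was not used. Parp9, Dtx3l, Trim30a, Ifi35 and Nmi had differences between -0.24 and 0.12 with age, none called.

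In the ISG15 system, Isg15 encodes the modifier, Usp18 the protease that removes it and restrains the receptor, and Herc6 the ligase that attaches it in the mouse. Isg15 was at 31.41, 18.69 and 18.94 FPKM in the young controls, 19.70, 16.51 and 18.89 FPKM in the aged controls, and 26.39, 40.54 and 35.89 FPKM with the knockout label. The libraries labelled knockout lay above all aged ones, and young control 1 lay within their range. Isg15 rose by 0.85 from aged to labelled knockout (SE 0.208, adjusted p = 0.0496 by limma) and differed by -0.27 between aged and young (adjusted p = 0.418). This Isg15 call held in 1 of 9 fits with a library left out. Usp18 was at 15.9 ± 2.85, 12.99 ± 1.26 and 15.5 ± 2.32 FPKM (SD, n = 3) with no call. Herc6, at a mean of 1.07 FPKM just above the limit of 1 FPKM, had no call either.

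**Figure D2:**
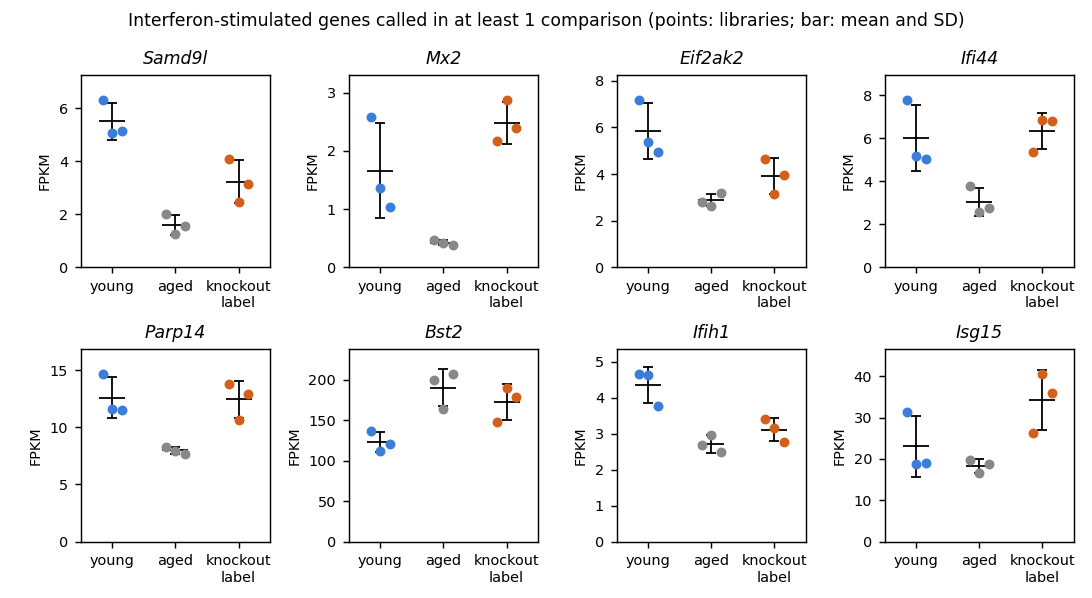
FPKM (y axis, starting at 0) of the 8 interferon-stimulated genes called in at least 1 comparison, by group (x axis); points are libraries and bars the mean with SD, n = 3. Every gene but Bst2 has its lowest point in the aged controls, and Bst2 has its lowest in the young controls. For Samd9l, Mx2, Ifi44 and Parp14 all aged points lie below all others.

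Effectors were the largest class, with 17 of 21 tested. Samd9l was at 6.33, 5.08 and 5.16 FPKM in the young controls, 2.01, 1.25 and 1.55 FPKM in the aged controls, and 4.09, 2.47 and 3.13 FPKM in the group labelled knockout. The 3 groups did not overlap, with aged lowest and young highest. It fell by 1.33 with age (SE 0.168, adjusted p = 0.00853 by limma), was 0.69 higher in labelled knockout than in aged (SE 0.168, adjusted p = 0.0487), and was not called between labelled knockout and young (-0.64, adjusted p = 0.271). The age call held in 8 of 9 fits with a library left out, failing without young control 1 (adjusted p = 0.0678), and the other call in 2 of 9.

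Mx2 was at 2.58, 1.36 and 1.03 FPKM in the young controls, 0.47, 0.42 and 0.39 FPKM in the aged controls, and 2.17, 2.88 and 2.40 FPKM in the labelled knockouts. The aged controls were lowest without overlap, while young control 1 lay within the range of the labelled knockouts. Mx2 was 1.28 higher in labelled knockout than in aged (SE 0.205, adjusted p = 0.00920 by limma), a call that held in all 9 fits with a library left out. Its aged mean of 0.427 FPKM lay below the limit of 1 FPKM, so Mx2 (mean 1.52 FPKM) was tested only through its level in the other groups. With no filter on low values the call was lost (adjusted p = 0.0514 by limma). The aged minus young difference of -0.85 narrowly missed the threshold in limma (adjusted p = 0.0502) and passed in voom on recovered fragments (-1.82 on that log2 scale, adjusted p = 0.0304). The annotation lists Mx2 as a polymorphic pseudogene, and 4.38% of its 50-base stretches also occur in other genes, here Mx1.

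Eif2ak2 was at 7.19, 5.39 and 4.96 FPKM in the young controls, 2.81, 2.65 and 3.17 FPKM in the aged controls, and 4.66, 3.14 and 3.97 FPKM with the knockout label. Every library labelled knockout lay below every young one, and labelled knockout 2 lay within the aged range. It fell by 0.81 with age (SE 0.154, adjusted p = 0.0355 by limma), and its labelled knockout minus aged difference of 0.34 did not pass (adjusted p = 0.218). Bst2 went the other way with age, at 136.79, 111.89 and 120.92 FPKM in the young controls, 199.31, 164.29 and 207.35 FPKM in the aged controls, and 147.88, 190.37 and 179.02 FPKM in the group labelled knockout. All 6 libraries from 18-month-old mice lay above the 3 young ones. Bst2 rose by 0.62 with age (SE 0.131, adjusted p = 0.0401 by limma) and differed by -0.14 between labelled knockout and aged (adjusted p = 0.542). The age calls of Eif2ak2 and Bst2 each held in 3 of 9 fits with a library left out.

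The IFIT family binds viral RNA, and its members differed from each other. Ifit1 was at 4.48, 1.88 and 3.34 FPKM in the young controls, 1.41, 0.80 and 1.45 FPKM in the aged controls, and 1.88, 2.96 and 3.18 FPKM in the labelled knockouts. The aged libraries were lowest, but the aged difference of -0.90 did not pass (adjusted p = 0.0680), nor did the labelled knockout difference of 0.72 (adjusted p = 0.117). Ifit2 was at 6.28 ± 1.23, 4.19 ± 0.543 and 4.65 ± 0.554 FPKM (SD, n = 3). Ifit3, at 21.3 ± 8.11, 22.3 ± 5.82 and 20.2 ± 9.40 FPKM, overlapped among all groups, as did Ifit3b. The pair shares 51.2% of the 50-base stretches of Ifit3, so their separate values are uncertain.

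The IFITM family blocks viral entry at membranes and held the most abundant member. Ifitm3 was at 983.68 to 1590.38 FPKM over the 9 libraries, and its groups overlapped in every comparison. Ifitm2 was at 189.4 ± 20.7, 262.5 ± 19.4 and 245.5 ± 42.2 FPKM (SD, n = 3), all aged libraries above all young ones, with an adjusted p of 0.0753. It overlaps a read-through gene on its own strand and shares 48.5% of its 50-base stretches with other genes. Ifitm1 was at 0.96, 1.88 and 6.70 FPKM in the young controls, 9.03, 9.57 and 3.42 FPKM in the aged controls, and 3.39, 8.15 and 1.98 FPKM with the knockout label. Its groups overlapped in every comparison, and the age difference of 1.14 (SE 0.555) did not pass (adjusted p = 0.212).

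Other effectors did not pass in any comparison. Rsad2 (viperin, which makes a chain-terminating nucleotide) was at 16.26, 12.49 and 14.93 FPKM in the young controls, 9.39, 7.18 and 10.78 FPKM in the aged controls, and 12.05, 13.77 and 22.17 FPKM in the group labelled knockout. The aged libraries lay below all others without overlap, and the adjusted p was 0.102 against young and 0.0837 against labelled knockout. Its chromosomal neighbour Cmpk2, a nucleotide kinase gene, was at 13.46 to 22.83 FPKM with overlapping groups. Of the OAS family, which activates RNase L or resembles its activators, Oasl1 and Oasl2 were lower in every aged library than in every young one (adjusted p = 0.120 and 0.217). Oas1a overlapped among groups, and it shares 57.6% of its 50-base stretches with close copies. The exonuclease gene Isg20 was higher in every aged library than in every young one (0.30, adjusted p = 0.281).

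Of the 4 genes below the limit, Oas2 came nearest, at 0.06 to 0.48 FPKM in single libraries, which is at most 60 fragments. Oas1g reached 0.28 FPKM, Oas3 0.09 FPKM and Mx1 0.04 FPKM, the last at most 3 fragments. The level of Mx1 was therefore at or near 0 in all groups. The limit of 1 FPKM left these 4 genes out of the test.

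Of 4 further interferon-induced genes, Ifi44 was called in both comparisons with the aged controls. It was at 7.80, 5.18 and 5.06 FPKM in the young controls, 3.79, 2.58 and 2.78 FPKM in the aged controls, and 5.38, 6.85 and 6.79 FPKM in the labelled knockouts. The aged libraries were lowest without overlap, and the other groups overlapped. Ifi44 fell by 0.78 with age (SE 0.174, adjusted p = 0.0431 by limma) and was 0.86 higher in labelled knockout than in aged (SE 0.174, adjusted p = 0.0257). With a library left out, the calls held in 3 and 6 of 9 fits. Ifi27, an interferon-induced membrane protein gene, was at 99.8 ± 0.766, 115.7 ± 12.2 and 91.6 ± 19.1 FPKM (SD, n = 3), with a labelled knockout minus aged difference of -0.35 (adjusted p = 0.167). Xaf1 and Rtp4 lay between 5.54 and 11.12 FPKM and between 33.84 and 62.29 FPKM, with overlapping groups.

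**Figure D3:**
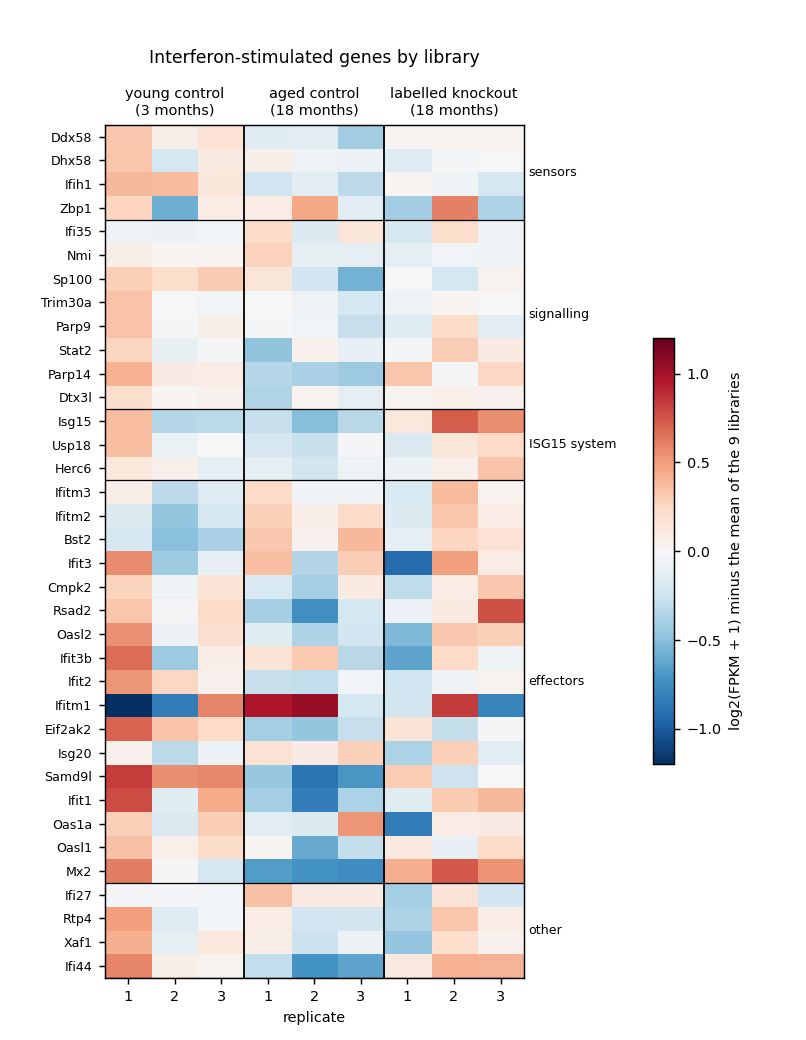
log2(FPKM + 1) minus the mean of the 9 libraries (colour) for the 36 tested genes (rows, by role) in the 9 libraries (columns, by group and replicate). Samd9l, Mx2, Ifi44 and Parp14 are lowest in the aged controls, while young control 1 is high across most rows.

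Gene length moved with these results. With age, the 16 genes over 4000 bases of exon all had negative differences (median -0.445), the 9 genes of over 2000 to 4000 bases had a median of -0.262, and the 11 genes up to 2000 bases had a median of 0.177. Over all genes the same 3 classes gave -0.14, 0.033 and 0.117. Spearman's rho between length and the aged difference was -0.656 over the 36 genes and -0.352 over all genes, a description across genes of the same libraries. Between labelled knockout and aged the order was turned round, with medians of 0.252, 0.137 and -0.2 for the genes and 0.081, -0.056 and -0.134 over all, and rho of 0.556 and 0.303. The called genes Samd9l, Eif2ak2, Ifi44, Ifih1 and Parp14 are all over 4000 bases long, while Mx2 has 3614 bases, Bst2 903 and Isg15 756.

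A fit with each library's trend on length removed, chosen after the data were seen, left 3 of the 6 aged calls. Samd9l (-1.23, adjusted p = 0.0129 by limma), Eif2ak2 (-0.72, adjusted p = 0.0452) and Bst2 (0.48, adjusted p = 0.0499) passed, and Ifi44 (-0.65, adjusted p = 0.0816), Ifih1 (-0.35, adjusted p = 0.113) and Parp14 (-0.40, adjusted p = 0.0748) did not. The median of the 36 genes became -0.167, beside 0.002 over all genes. In labelled knockout against aged, Mx2, Ifi44, Isg15 and Parp14 passed and Samd9l did not (0.63, adjusted p = 0.0719).

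**Figure D4:**
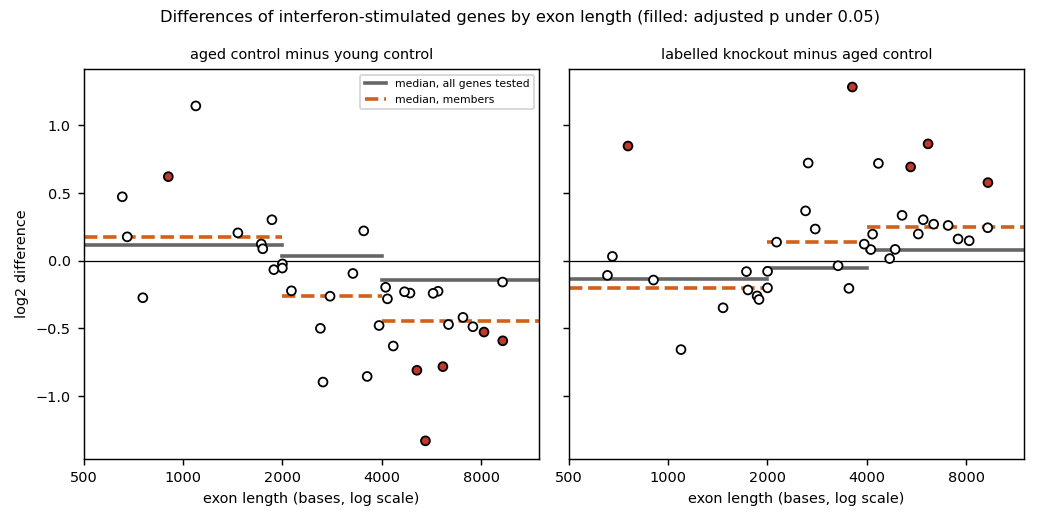
Log2 difference (y axis) against exon length in bases (x axis, log scale) for the 36 tested genes, aged minus young on the left and labelled knockout minus aged on the right; filled points had an adjusted p under 0.05, and lines are medians by length class for all genes and for these genes. The 16 genes over 4000 bases all lie below 0 on the left and above 0 on the right.

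The genes tended to share their ranking of the libraries within a group. Young control 1 was the highest of the 3 young libraries for 32 of the 36 genes, against 37.2% of all genes tested, and young control 2 was the highest for none and the lowest for 25. Labelled knockout 1 was the lowest of its group for 29 (40.9% of all genes), and labelled knockout 2 the highest for 22 (37.4%). Aged control 1 was the highest of its group for 19 and aged control 2 the lowest for 22 (26.2% of all genes). Without young control 1, no interferon-stimulated gene was called between aged and young, and over all genes the calls went from 141 higher and 330 lower to 0 and 5. The median of the 36 genes was then -0.113. The loss was not particular to that library. Without young control 2 the calls over all genes were 3 higher and 17 lower, and without young control 3 they were 4 and 19. In each of those fits 1 interferon-stimulated gene was called. Without labelled knockout 1, 2 genes were called between labelled knockout and aged.

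**Figure D5:**
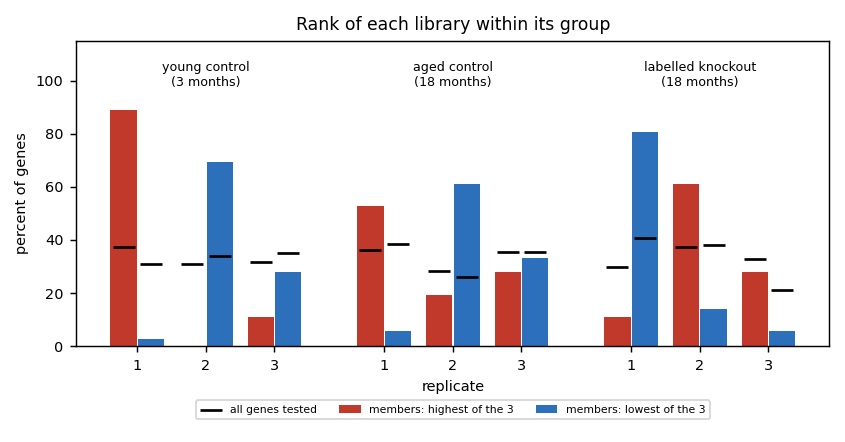
Percent of genes (y axis) for which each library (x axis, by group and replicate) was the highest or the lowest of the 3 in its group, for the 36 interferon-stimulated genes (bars) and for all genes tested (black marks). Young control 1 is highest for 32 of 36 genes and labelled knockout 1 lowest for 29 of 36.

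The ligands, receptor and transcription factors of the pathway were measured in the same libraries. None of 21 interferon genes reached a mean of 1 FPKM; Ifnb1 was at 0 to 0.50 FPKM in single libraries. Ifne, an interferon gene of epithelia, was at 0.26, 0.13 and 0.44 FPKM in the young controls, was listed at 0 in all aged controls, and was at 0.32, 0.50 and 0.22 FPKM with the knockout label. None of the 10 genes for receptor chains, JAK kinases and STAT factors was called in any comparison by limma. At an unadjusted p under 0.05 (shares over all genes are given above) there were 2 lower with age, 1 higher in labelled knockout than in aged and 1 higher in labelled knockout than in young. Ifnar1 was at 17.5 ± 0.773, 15.4 ± 1.93 and 16.7 ± 1.13 FPKM (SD, n = 3), and Ifnar2 at 42.9 ± 1.25, 43.2 ± 1.37 and 43.6 ± 3.50 FPKM. Irf9, the DNA-binding partner, was at 22.9 ± 2.37, 20.7 ± 1.59 and 23.4 ± 5.20 FPKM.

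Of 13 tested genes of the sensing pathway that leads to interferon, 1 fell and 1 rose with age: Tlr3, the endosomal receptor for double-stranded RNA, went from 9.61 ± 1.07 to 5.64 ± 0.644 FPKM (SD, n = 3, adjusted p = 0.0343 by limma), and Rnf135, a ligase that acts on RIG-I, from 9.03 ± 0.649 to 14.4 ± 1.95 FPKM (adjusted p = 0.0401). Between aged and labelled knockout, 3 rose and 1 fell. Over all genes, 2.8% fell and 1.2% rose with age, and 2.78% rose and 2.01% fell from aged to labelled knockout. Irf7, the factor that amplifies interferon genes, was at 19.73, 11.50 and 12.89 FPKM in the young controls, 7.57, 8.86 and 11.72 FPKM in the aged controls, and 16.66, 19.07 and 17.24 FPKM in the group labelled knockout. Irf7 was 0.86 higher in labelled knockout than in aged (SE 0.196, adjusted p = 0.0384 by limma). Trim25, the ligase that activates RIG-I, was at 27.6 ± 3.98 FPKM in aged and 46.9 ± 3.57 FPKM in labelled knockout (adjusted p = 0.00897), and the adaptor gene Myd88 at 52.6 ± 1.80 and 83.7 ± 9.33 FPKM (adjusted p = 0.0119). Rnf135 fell from the aged level to 9.08 ± 1.29 FPKM (adjusted p = 0.0295).

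Of 15 tested negative regulators, Socs1, the inhibitor of JAK kinases, was the 1 called, higher in labelled knockout than in aged (2.78% of all genes). It was at 60.78, 41.80 and 44.96 FPKM in the young controls, 35.85, 32.08 and 34.11 FPKM in the aged controls, and 76.54, 84.35 and 66.33 FPKM in the labelled knockouts. The 3 groups did not overlap, and Socs1 was 1.13 higher in labelled knockout than in aged (SE 0.144, adjusted p = 0.00438 by limma). Among 36 other tested interferon-stimulated genes, 4 fell with age and 4 rose from aged to labelled knockout (2.8% and 2.78% of all genes). Slfn5, a gene of the Schlafen family, was at 51.3 ± 10.8, 28.1 ± 1.97 and 59.4 ± 10.5 FPKM (SD, n = 3) and was called in both (adjusted p = 0.0363 and 0.00920). Daxx, a histone chaperone gene, was at 21.9 ± 3.72, 13.7 ± 1.13 and 25.6 ± 4.26 FPKM and was called in both (adjusted p = 0.0462 and 0.0136). Pnpt1, an RNA exonuclease gene, was lower in aged (7.07 ± 0.214 FPKM) than in young (11.4 ± 0.262 FPKM, adjusted p = 0.0355). Helz2, a helicase gene, was higher in labelled knockout (7.06 ± 0.630 FPKM) than in aged (4.93 ± 0.595 FPKM, adjusted p = 0.0480). The chemokine gene Cxcl10 was the remaining one called in both, with 125.77 to 203.90 FPKM with the knockout label. Of 5 tested paralogues of the listed families, Ifitm10 rose with age and fell in labelled knockout, at 3.70 ± 0.441, 7.67 ± 0.991 and 3.60 ± 0.879 FPKM (adjusted p = 0.0278 and 0.0104). None of these lists had a call between labelled knockout and young.

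Among markers of other cell types, only those of stromal, adipocyte and osteoblast cells had calls. Fewer cells of a type and less RNA per cell cannot be told apart in these bulk samples. Of 7 tested genes of stromal, adipocyte and osteoblast cells, 5 fell with age, 1 was lower in labelled knockout than in aged and 2 were lower in labelled knockout than in young. Over all genes, 2.8% were called lower with age. In labelled knockout, 2.78% were called higher and 2.01% lower than in aged, and 0.127% lower than in young. The summed level of the list of 10 was 99.23 to 132.42 FPKM in young, 52.81 to 58.52 FPKM in aged and 42.54 to 65.34 FPKM in labelled knockout. The immediate early genes Egr2 and Atf3, which respond to many stimuli, fell with age, and Egr1, Egr2 and Atf3 rose from aged to labelled knockout. The summed level of 10 B and plasma cell genes was 670.24 to 1113.58 FPKM in young, 1240.36 to 3856.9 FPKM in aged and 644.88 to 2487.3 FPKM in labelled knockout. None of its 7 tested genes was called by limma, and 5 were higher with age at an unadjusted p under 0.05 (10.2% of all genes). Within this list Igkc, an antibody light chain gene, ranged from 0.87 to 2318.70 FPKM. Siglech, the marker of plasmacytoid dendritic cells, which make type I interferon, was at 0 to 0.24 FPKM, and no tested gene of that list was called. No gene of the monocyte and macrophage, neutrophil, or erythroid and megakaryocyte lists was called either, of 6, 7 and 6 tested, and none of the T and NK cell list reached a mean of 1 FPKM. Of the defining endothelial genes, Erg fell with age, being at 14.4 ± 0.801 in young and 9.28 ± 1.96 FPKM in aged (SD, n = 3), with an adjusted p of 0.0447 by limma. The part of these shifts in the interferon-stimulated genes was not tested.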

How the data were processed

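The authors deposited FPKM values for 52183 genes in 9 libraries, and the submitters' processing notes name edgeR, STAR and FastQC 0.11.5, and the builds mm10 and GRCm38. Libraries were made with a full-length low-input cDNA kit, per the labels' protocols. How reads were counted, by strand or at repeated sequence, is not stated in these sources. All gene IDs matched GENCODE M21, which gave lengths and positions.

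Depth was recovered because FPKM of genes of 60 to 400 bases were whole fragments within a tolerance of 0.1 for 99.5% to 99.8% of values per library. After a pseudocount of 1, log2(FPKM + 1) was fitted in limma 3.58.1 (R 4.3.3), 1 mean per group over the 9 libraries, 6 residual degrees of freedom and eBayes with trend, for 11796 genes averaging at least 1 FPKM. p was adjusted by Benjamini-Hochberg over all of them, and a gene was called under 0.05. A fold on this scale understates the change of low genes. The 40 genes, their roles and the pathway and marker lists were chosen with earlier results of these data known. Members were named with values per library where called, or where groups did not overlap and differed by at least 1 log2 unit, and pathway genes where called (up to 4 per list and comparison) beside Irf7, Irf9, Ifnar1 and Ifnar2; 1 further gene of that rule is not reported here. Values of Ifit1, Ifitm1, Rsad2, Socs1 and Ifne per library, and the marker genes named, were chosen after they were seen. Alternatives were other pseudocounts, filters and scalings, the compared groups alone, a replicate block and each library left out, and, chosen after seeing the data, voom on recovered fragments and removal of each library's length trend. Promoters are RefSeq's. Figures used Python 3.11.15 and matplotlib 3.10.9.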

Additional observations from a re-analysis of the deposited data

How the results depend on the processing

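Between aged and young, 6 genes were called, beside 1 with no filter on low values, 3 with quantile normalization, 3 with the length trend removed, 5 with median-ratio scaling, 7 at a pseudocount of 0.1 and 8 with voom. Over all genes, quantile normalization called 160 higher and 199 lower. Between labelled knockout and aged 5 were called, beside 3 at a pseudocount of 5, 0 with no filter, 3 at a mean of at least 5 FPKM and 2 in a fit of those groups alone. The filter at 5 FPKM left 26 of the genes in the test. It took out Mx2 and Samd9l, and the other called genes Ifi44, Isg15 and Parp14 still passed. With one library left out, counts ran from 0 to 8, 1 to 5 and 0 to 0 for aged against young, labelled knockout against aged and labelled knockout against young. No gene changed sign in these fits in a comparison in which it was called. The replicate block gave 3 aged calls, 4 calls between labelled knockout and aged and 0 against young, while correlations of same-numbered libraries ran from -0.129 to 0.124, so the numbers were not taken as pairs.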
